A study of Mus musculus with 8 samples.

Results

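Mitochondrial ribosomal proteins are the protein components of the ribosome that works inside mitochondria, and their genes were taken here by name. All genes with a symbol that starts with Mrpl or Mrps and goes on with a digit were selected, pseudogenes were left out, and a mean level over the 8 libraries of at least 1 TPM (transcript abundance corrected for transcript length and library size) was required. The pattern matched 77 genes of the 35976 in the table. All 77 passed the level requirement, and all 77 were among the 14036 genes tested. The rule used names and mean levels and made no use of the difference between genotypes.

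RNA from whole mouse liver was sequenced after preparation with a stranded messenger RNA kit. The control group, labelled CTRL, held 5 libraries. The other group, labelled OPA1 LKO, held 3 libraries, and the series describes it as a knockout of OPA1 in hepatocytes. OPA1 is the dynamin-like GTPase that fuses mitochondrial inner membranes and keeps cristae in shape. Both groups carried the treatment label High Fat Diet, so all comparisons were made within this diet and no other diet was analysed here. Age, sex, strain, the promoter behind the deletion and the deleted exons are not stated, and nothing in the labels says whether each library came from a separate animal, so p-values measured the spread between these libraries, which may be technical.

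The mitochondrial ribosome translates the few proteins that mitochondrial DNA encodes, all of them hydrophobic parts of respiratory complexes and of ATP synthase. Its RNAs are encoded in mitochondrial DNA, whereas every one of its proteins is encoded in the nucleus, made in the cytosol and imported. It consists of a small subunit that holds and decodes the messenger RNA and a large subunit that joins amino acids and feeds the new chain to the inner membrane, and it has many more proteins and less RNA than the bacterial ribosome from which it descends. In hepatocytes, which are rich in mitochondria, these genes are expressed in every cell and are known as a group with housekeeping promoters, in which binding sites for NRF1, for ETS factors such as GABPA and for YY1 are common.

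Promoter sequences were available for 68 of the 77 genes, as windows of 250 bases before to 50 bases after the RefSeq start site (GRCm38.p6). They were searched on both strands for the letters of each motif. The ETS core CCGGAA was found in 39 of the 68 windows (57.4%), against 29.5% of the 10562 tested genes with a window and 14.9% of all 32851 windows. Its longer form CCGGAAGT, which contains the core, was found in 12 windows (17.6%), against 8.45% and 3.89%. The NRF1 motif (GCGCA, any base, then GCGC) was found in 13 windows (19.1%), against 10.7% of tested genes and 4.6% of all windows. The YY1 motif (AA, any base, ATG, then GCGGC) was found in 7 windows (10.3%), against 2.59% and 0.986%. At least 1 of these 3 motifs was present in 47 windows, 12 held at least 2 of them, and 21 held none. Such a match is a description of the letters and does not show that a factor binds.

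Other motifs were about as common in these windows as in those of other genes, or less so. The E-box CACGTG, which MYC can bind, was in 5 windows (7.35%, against 11.5% of tested genes). CCAAT was in 27 windows (39.7%, against 42.6%) and TATAAA in 5 (7.35%, against 9.52%). The cAMP response element TGACGTCA was in 2 windows (2.94%, against 3.41%), those of Mrpl49 and Mrpl16. The amino acid response motif TGATGNAA, which ATF4 can bind, was in 0 of the 68 windows and in 2.99% of those of tested genes. A motif absent from the window says only that these letters are not there.

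The following 4 windows show the motifs in place: Mrpl49, which was the 1 gene to pass the test below, Mrps21, which had the highest level, Mrpl39, which holds an ETS core and an NRF1 motif, and Mrps27, which holds 2 ETS cores and a YY1 motif. Each is written 5′ to 3′ along the gene. Capitals mark the cAMP response element in Mrpl49, and ETS, NRF1 or YY1 motifs in the other windows, where TTCCGG is the ETS core read on the opposite strand; the marked motifs do not overlap.
Mrpl49, chr19:6057706-6058005, minus strand: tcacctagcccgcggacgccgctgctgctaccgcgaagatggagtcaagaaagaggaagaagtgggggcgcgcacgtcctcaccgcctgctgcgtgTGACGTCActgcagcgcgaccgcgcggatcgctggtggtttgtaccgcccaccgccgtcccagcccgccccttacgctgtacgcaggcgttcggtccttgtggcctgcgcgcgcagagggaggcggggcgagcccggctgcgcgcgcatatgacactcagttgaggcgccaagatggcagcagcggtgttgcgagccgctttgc
Mrps21, chr3:95871465-95871764, minus strand: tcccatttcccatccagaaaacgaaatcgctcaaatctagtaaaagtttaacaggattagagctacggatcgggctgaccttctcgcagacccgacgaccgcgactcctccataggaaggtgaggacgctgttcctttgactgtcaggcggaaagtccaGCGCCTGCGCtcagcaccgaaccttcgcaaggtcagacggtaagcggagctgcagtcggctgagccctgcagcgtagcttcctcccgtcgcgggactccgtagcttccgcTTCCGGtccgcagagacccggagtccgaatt
Mrpl39, chr16:84735195-84735494, minus strand: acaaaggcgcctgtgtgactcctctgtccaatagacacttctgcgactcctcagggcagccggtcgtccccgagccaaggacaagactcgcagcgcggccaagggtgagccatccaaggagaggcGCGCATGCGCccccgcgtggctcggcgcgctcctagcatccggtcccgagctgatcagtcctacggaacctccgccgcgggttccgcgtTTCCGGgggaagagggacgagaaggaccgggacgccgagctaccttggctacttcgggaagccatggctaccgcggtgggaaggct
Mrps27, chr13:99344536-99344835, plus strand: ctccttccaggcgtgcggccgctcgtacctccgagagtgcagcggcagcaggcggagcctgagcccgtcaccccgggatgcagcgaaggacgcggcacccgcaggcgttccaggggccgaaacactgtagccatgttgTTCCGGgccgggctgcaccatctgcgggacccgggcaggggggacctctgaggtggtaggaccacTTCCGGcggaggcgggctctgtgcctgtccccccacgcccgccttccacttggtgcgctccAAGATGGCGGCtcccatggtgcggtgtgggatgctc
In the Mrps27 window the YY1 motif starts at base 14 after the start site, and the ETS cores lie at bases −112 and −47. In the Mrps21 window the ETS core is at base 19, on the transcribed side of the start site, and the NRF1 motif at base −91.

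The 77 genes were spread over 17 chromosomes, with 10 on chromosome 11 and 8 on chromosome 17. In the GENCODE M21 annotation, 33 of them (42.9%) had a neighbour on the opposite strand whose start site lay within 1000 bases, against 1949 of 12496 tested genes (15.6%). One such pair joins a gene of each subunit, Mrpl46 and Mrps11. Mrpl36 and Mrpl47 lie beside Ndufs6 and Ndufb5, which encode subunits of respiratory complex I, and Mrps12 lies beside Sars2, which encodes the mitochondrial seryl-tRNA synthetase. Of the 29 neighbours that were tested, Mrpl46 and Mrps11 included, 0 were higher and 0 were lower in OPA1 LKO at an adjusted p under 0.05 in edgeR, DESeq2 and limma-voom, and 1 had an unadjusted p under 0.05. Their median log2 fold change was −0.03. Over all tested genes it was −0.033, edgeR called 6.03% and 23.8% had an unadjusted p under 0.05.

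Libraries held 16076404 to 20471271 expected counts, the read numbers that the authors' quantification assigned to genes. Opa1 itself was at 39.9, 51.9, 44.0, 57.6 and 46.9 CPM (counts scaled to library size, here with TMM factors) in the 5 CTRL libraries and at 24.7, 34.4 and 34.0 in the 3 OPA1 LKO libraries, so the groups did not overlap in CPM, although they did in TPM. Its log2 fold change was −0.63 ± 0.17 (SE; edgeR quasi-likelihood test, Benjamini-Hochberg adjusted p = 0.0539). With 1 library left out the adjusted p ran from 0.0272 to 0.236, and only the fit without CTRL replicate 1 passed. Over all genes, 469 were higher and 377 were lower at an adjusted p under 0.05, and with upper-quartile factors the split was 547 and 270. The sum of 846 fell to 198 without OPA1 LKO replicate 1 and reached 1701 without CTRL replicate 1. Transcripts encoded in mitochondrial DNA took 20.4 to 36.4% of TPM in CTRL and 18.4 to 32.6% in OPA1 LKO, and CTRL replicate 3 held the largest share. The 6 hepatocyte markers, summed, spanned 52600 to 66500 TPM in CTRL and 60100 to 73500 in OPA1 LKO, and none of the 6 was called. Of 6 bile duct markers 3 rose (Krt7, Sox9 and Spp1), and their summed level was 14.2 to 52.1 TPM in CTRL and 110 to 188 in OPA1 LKO, with Cldn7 listed at 0 in at least 1 library. Stellate cell markers summed to 96.4 to 130 against 151 to 335 TPM with 0 of 6 called, and dividing-cell markers to 0.78 to 2.94 against 3.38 to 4.71 with 1 of 4 called (Cdk1). Kupffer cell and macrophage markers ranged from 75.2 to 599 TPM within CTRL and from 88.2 to 150 in OPA1 LKO, with 0 of 8 called. Of the remaining lists, sinusoidal endothelial, lymphocyte and neutrophil markers had 0 genes called and overlapping sums. What part these differences have in the values below was not tested, and in whole tissue fewer cells of a type and less RNA per cell cannot be told apart.

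Levels of the mitochondrial ribosomal protein genes differed far more between genes than between genotypes. On the TPM scale, which is per transcript length and so allows genes to be compared, the highest mean was 78.8 times the lowest, with a median of 36.8 TPM. The 5 highest genes held 23.9% of the summed TPM of all 77, the 10 highest 38.8% and the 20 highest 59.0%. Apart from Mrps36, discussed below, the products are built into the ribosome in equal number, except the stalk protein Mrpl12, which has several copies.

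**Figure D1:**
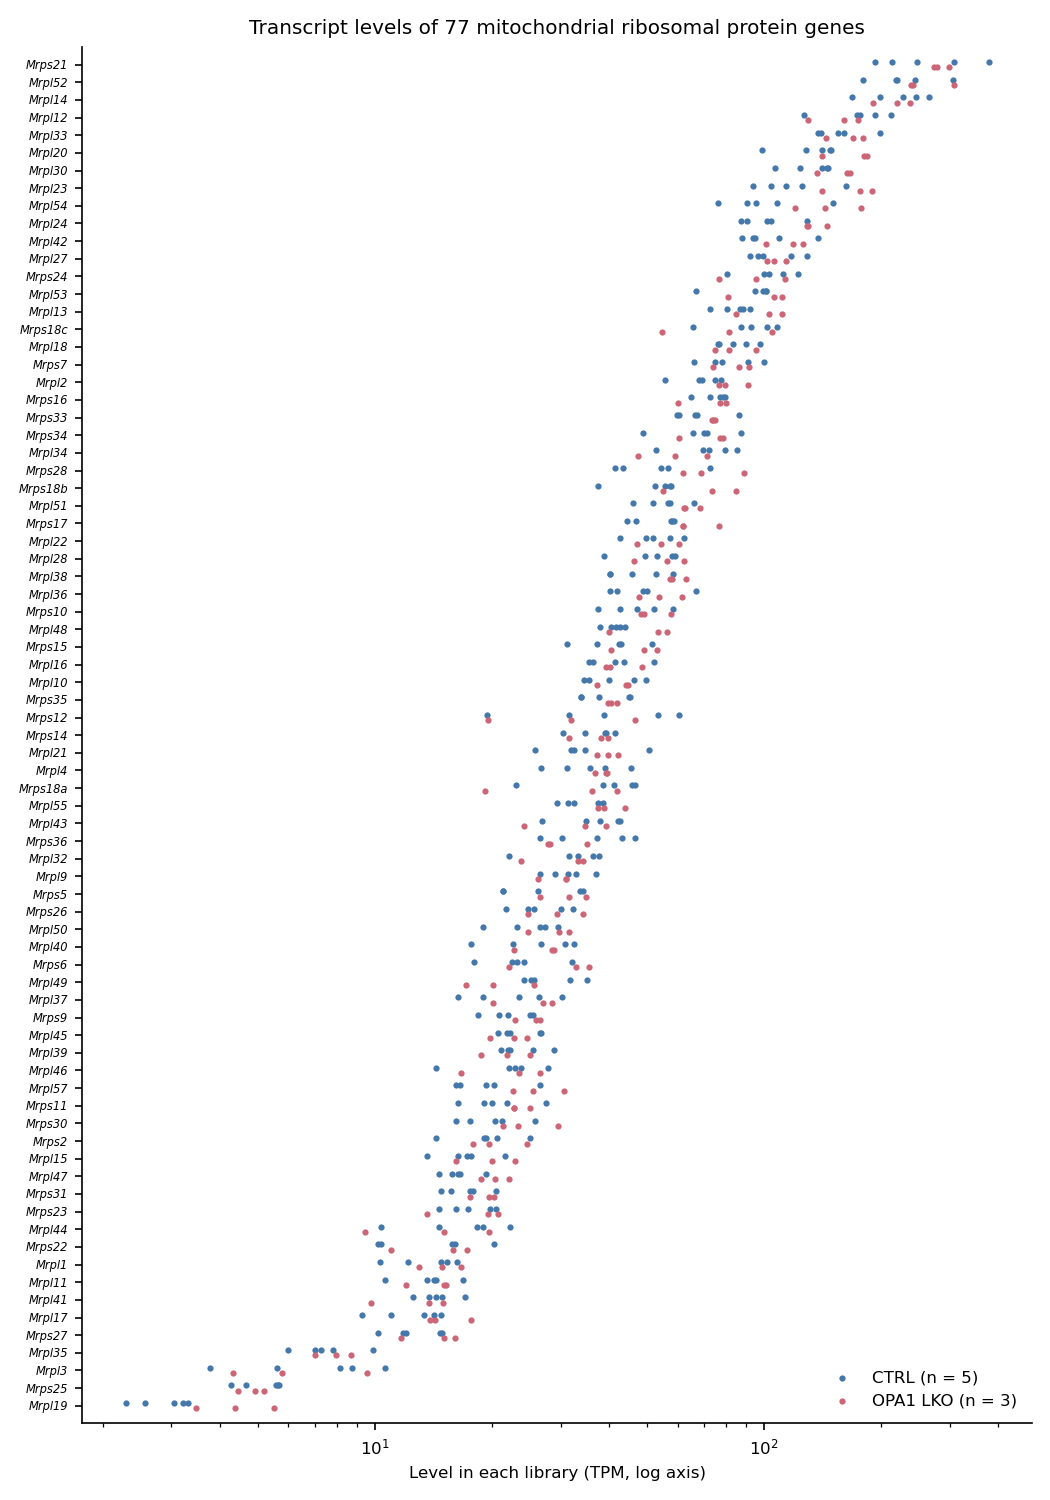
Level of each of the 77 genes (rows, ordered by mean) in each library, in TPM on a log axis; each point is 1 library, with 5 CTRL and 3 OPA1 LKO points per gene. The points of a gene lie close together compared with the distance from Mrps21 at 274 TPM to Mrpl19 at 3.47 TPM.

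Mrps21, a small-subunit protein with a bacterial counterpart, had the highest mean at 274 TPM. It was at 378, 247, 308, 213 and 193 TPM in CTRL and at 299, 273 and 278 TPM in OPA1 LKO. The OPA1 LKO values lay inside the CTRL range. Mrpl52 followed at a mean of 245 TPM, Mrpl14 at 219, Mrpl12 at 168 and Mrpl33 at 160; these 4 encode large-subunit proteins, and Mrpl52 has no bacterial counterpart. The neighbours in this order overlapped one another across libraries: Mrpl52 ran from 180 to 306 TPM in CTRL and Mrpl14 from 168 to 266. The highest TPM did not mean the most reads: Mrps21 had a mean of 75.1 CPM in CTRL, against 138 for Mrpl12 and 97 for Mrpl14.

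At the low end, Mrpl19 had a mean of 3.47 TPM, Mrps25 of 5.05, Mrpl3 of 7.06, Mrpl35 of 7.70 and Mrps27 of 13.3. Low TPM did not always mean few reads. Mrps25 had 30.0 ± 2.16 CPM in CTRL (SD, n = 5) and Mrps27 had 20.2 ± 1.81, whereas Mrpl3 had no library above 13.7. Summed over all 77 genes the level was 4320 ± 508 TPM in CTRL (SD, n = 5) and 4680 ± 446 TPM in OPA1 LKO (SD, n = 3), a ratio of 1.08. On the CPM scale the sums were 3220 ± 221 and 3110 ± 122, a ratio of 0.963. Both differences were smaller than the spread between libraries.

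The small subunit's share of the summed TPM was 30.3 to 31.6% in CTRL and 30.1 to 30.7% in OPA1 LKO, so the balance of the subunits overlapped between the genotypes. Within the CTRL group the highest library was 1.44 times the lowest (median over the 77 genes), against 1.68 times over all tested genes. All tested genes had a lower median level, 4.16 TPM against 36.8 TPM. The ratio was 1.38 for 80 cytosolic ribosomal protein genes and 1.48 for 80 nuclear genes of the respiratory chain and ATP synthase. A ratio near 1.44 was thus not particular to the 77 genes.

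Between the genotypes, 1 of the 77 genes passed the test and 76 did not. The gene was Mrpl49, which was lower in OPA1 LKO, and 0 were higher; over all tested genes 6.03% were called, 2.69% lower and 3.34% higher. DESeq2 and limma-voom each called 1 of the 77, which was also Mrpl49. At an unadjusted p under 0.05 there were 6 of the 77, against 23.8% of all tested genes. Log2 fold changes ran from −0.60 to 0.47 with a median of −0.081, against −0.033 over all genes, and 27 were positive and 50 negative, where 53.1% of all genes were negative. The middle of this distribution depends on the scaling. With upper-quartile factors the median was 0.0082 with 40 positive and 37 negative, and on the log2(TPM + 1) scale it was 0.11 with 56 positive and 21 negative. The latter fit used only genes with a mean of at least 1 TPM. Its all-gene median was 0.12 above that with TMM factors, which was taken over a different set of genes. Relative to the median of all genes in the same fit, the 77 genes stood at −0.048 with TMM factors, −0.042 with upper-quartile factors and 0.027 on the TPM scale.

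The precision was enough to bound most genes. For 75 of the 77 the 95% interval of the fold change lay within 2-fold in either direction, against 61.9% of all tested genes, and for 56 it lay within 1.5-fold, against 27.9%. Mrps12 and Mrpl3 were the 2 whose intervals reached past 2-fold. In 4 genes every OPA1 LKO library was below every CTRL library in CPM (Mrpl49, Mrps25, Mrpl45 and Mrpl10, the last of these named for this count after its values were seen), against 8.41% of all tested genes. In 0 genes was every OPA1 LKO library above in CPM, against 8.0%, and the other 73 overlapped. In TPM the counts ran the other way: 0 genes had every OPA1 LKO library below, against 2.79% of all tested genes, and 3 had every one above, against 9.52%. Those 3 were Mrpl19, Mrpl24 and Mrps17, the last 2 named after their values were seen, and the 4 genes apart in CPM overlapped in TPM.

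**Figure D2:**
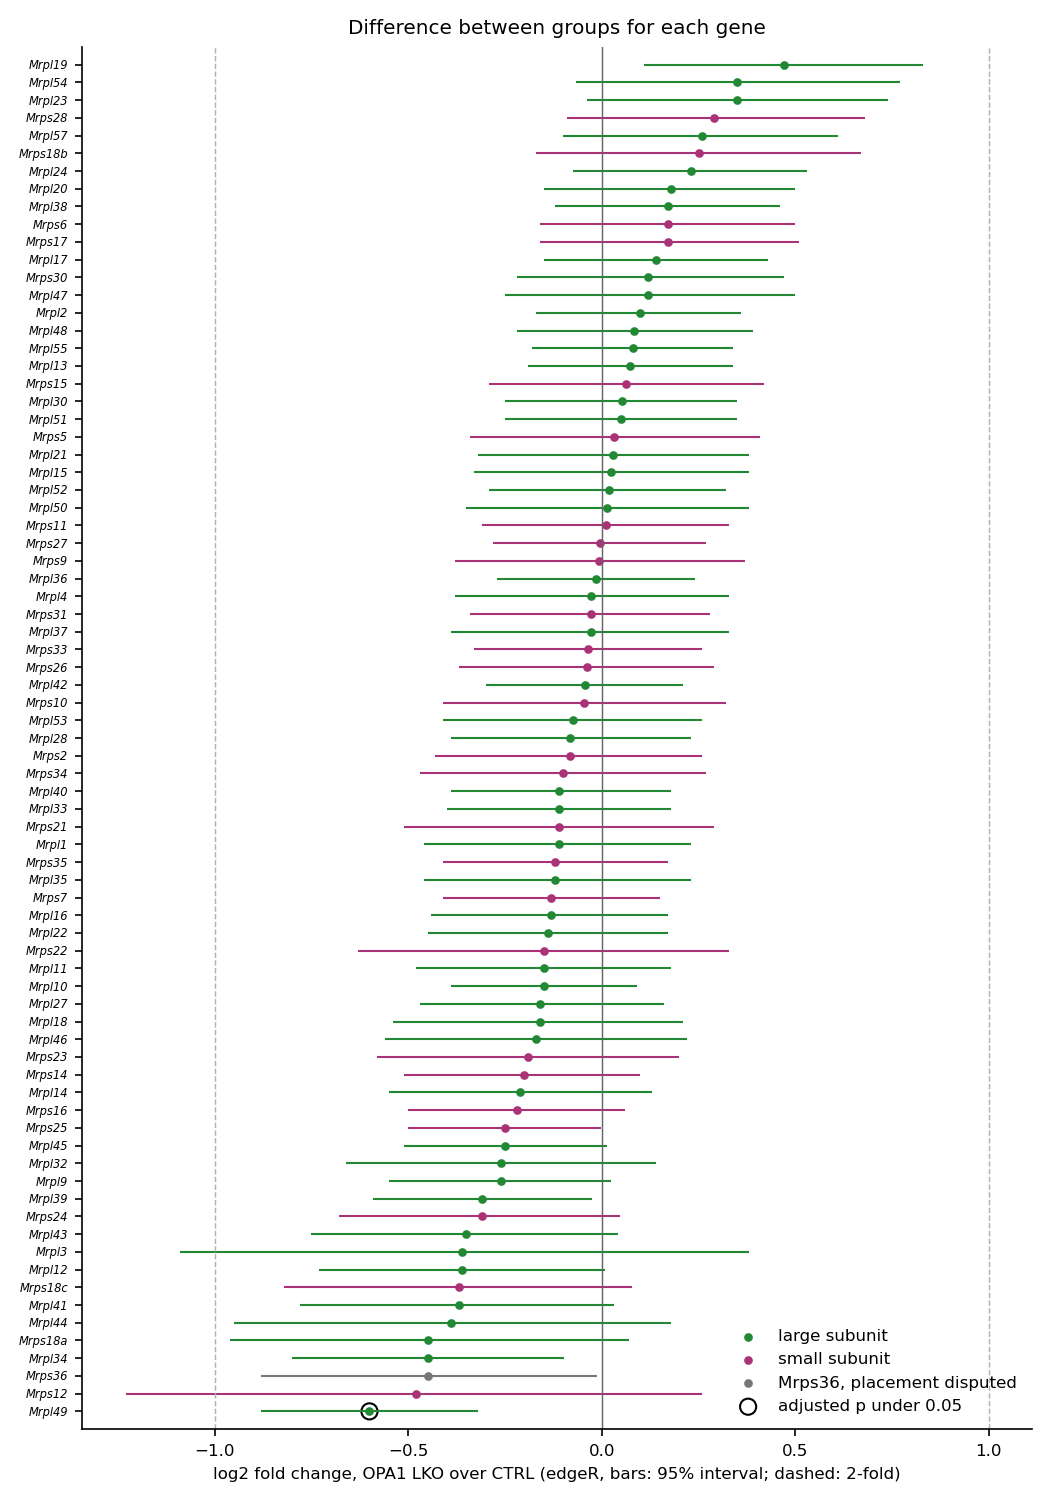
Log2 fold change of OPA1 LKO over CTRL for the 77 genes (points, ordered by value) with 95% intervals (bars), coloured by subunit; dashed lines mark a 2-fold difference and the open ring the 1 gene with an adjusted p under 0.05. Values ran from −0.60 for Mrpl49 to 0.47 for Mrpl19, and the intervals of 75 genes stayed between the dashed lines.

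Mrpl49 encodes a large-subunit protein that bacteria lack; the gene lies on the minus strand at chr19:6053630-6057755 (RefSeq, GRCm38.p6). It was at 43.8, 44.9, 45.7, 43.1 and 39.4 CPM in CTRL, compared with 26.5, 33.1 and 26.2 CPM in OPA1 LKO. All 3 OPA1 LKO libraries were low, and replicate 2, the highest of them, was still under the lowest CTRL library. The means were 43.4 ± 2.46 (SD, n = 5) and 28.6 ± 3.90 (SD, n = 3), a fold of 0.660 with a 95% interval of 0.542 to 0.802 (log2 fold change −0.60 ± 0.13 SE; edgeR quasi-likelihood test, adjusted p = 0.0248).

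The Mrpl49 call was not firm. Its direction was negative in all 17 alternative fits planned for it, with log2 fold changes from −0.72 to −0.42, and it passed the threshold in 8 of them. It was not called without CTRL replicate 2 (edgeR adjusted p = 0.0587), CTRL replicate 3 (0.0558), CTRL replicate 4 (0.056), OPA1 LKO replicate 1 (0.143) or OPA1 LKO replicate 3 (0.139). It was also not called with no filter on low counts (0.0522), with the replicate number as a block (0.0614) or with limma on log2(TPM + 1) and log2(TPM + 0.1) (0.273 and 0.275). In TPM the libraries were at 35.1, 31.7, 25.2, 24.2 and 25.7 in CTRL and at 20.1, 25.6 and 17.2 in OPA1 LKO, and the groups overlapped.

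Fau, which encodes a ubiquitin-like fusion of the cytosolic ribosomal protein S30, starts 59 bases from Mrpl49 on the other strand (GENCODE M21). It was at 384 ± 32.8 CPM in CTRL (SD, n = 5) and 405 ± 19.2 in OPA1 LKO (SD, n = 3). Its log2 fold change was 0.08 ± 0.13 (SE; edgeR adjusted p = 0.756), with a 95% interval of −0.22 to 0.38 that did not reach the value of Mrpl49.

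**Figure D3:**
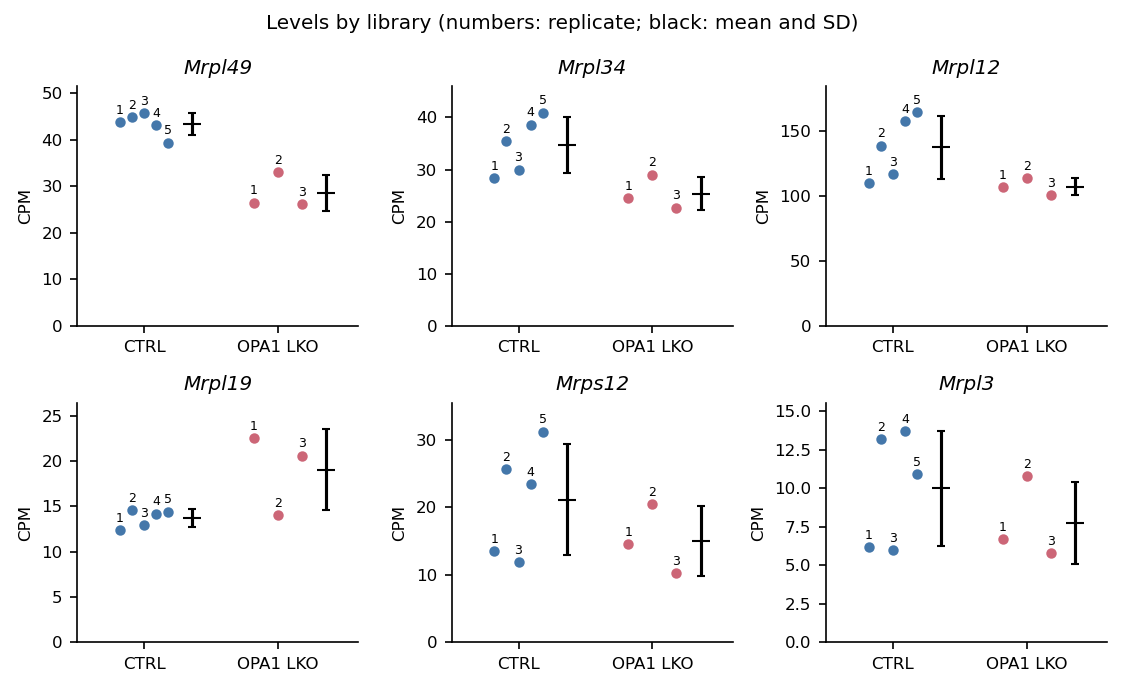
CPM of Mrpl49, Mrpl34, Mrpl12, Mrpl19, Mrps12 and Mrpl3 in each library (points labelled by replicate number) with the group mean and SD in black, each axis starting at 0. The groups are apart for Mrpl49 only; in Mrps12 and Mrpl3, CTRL replicates 1 and 3 and OPA1 LKO replicates 1 and 3 are the low points.

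Among large-subunit proteins with a bacterial counterpart, 31 in number, 0 were called, 2 had an unadjusted p under 0.05, and the median log2 fold change was −0.11. Of all tested genes 6.03% were called and 23.8% had an unadjusted p under 0.05. The parts of the ribosome described below hold few genes, so 0 calls in a part is not read as a result about it. Mrpl34 was at 28.4, 35.4, 30.0, 38.6 and 40.9 CPM over the CTRL libraries and at 24.5, 29.0 and 22.7 CPM in OPA1 LKO. The groups met only where OPA1 LKO replicate 2 exceeded CTRL replicate 1. Its log2 fold change was −0.45 ± 0.16 (SE; edgeR adjusted p = 0.123).

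Mrpl19, the gene with the lowest TPM, had the most positive value. It was at 12.4, 14.6, 12.9, 14.2 and 14.4 CPM among controls, and at 22.5, 14.0 and 20.6 CPM in OPA1 LKO. Replicates 1 and 3 of OPA1 LKO stood above all CTRL libraries in CPM and replicate 2 within them. In TPM it was at 3.22, 3.31, 2.29, 2.57 and 3.04 in CTRL and at 5.5, 3.48 and 4.37 in OPA1 LKO, and all 3 OPA1 LKO libraries were above CTRL. The log2 fold change was 0.47 ± 0.16 (SE; edgeR adjusted p = 0.114), and without OPA1 LKO replicate 2 it was 0.65 with an adjusted p of 0.0334. That was the 1 of 8 fits with 1 library left out that passed, and the largest adjusted p among them was 0.42. Mrpl9, with a log2 fold change of −0.26, did not pass either. Mrpl14 (−0.21), Mrpl33 (−0.11) and Mrpl35 (−0.12) did not pass, and the signs of Mrpl33 and Mrpl35 turned positive on the TPM scale.

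The stalk that holds Mrpl12 recruits translation factors to the ribosome, and Mrpl12 also binds the mitochondrial RNA polymerase. The 5 genes grouped here as stalks are not all from that stalk. All 5 had negative values with TMM factors, as had 53.1% of all tested genes, and their median was −0.15. In edgeR 0 of 5 were called, against 6.03% of all tested genes, and 0 had an unadjusted p under 0.05, against 23.8%. On the log2(TPM + 1) scale 4 of 5 were positive. Mrpl12 was at 110, 139, 117, 158 and 165 CPM in CTRL, compared with 107, 114 and 101 CPM in OPA1 LKO. The CTRL libraries were wide apart, and CTRL replicates 1 and 3 were near the OPA1 LKO values. Its log2 fold change was −0.36 ± 0.17 (SE; edgeR adjusted p = 0.222).

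Around the exit of the peptide tunnel, where Mrpl45 anchors the ribosome to the inner membrane, 0 of 8 genes were called and 1 had an unadjusted p under 0.05. The shares of all tested genes were 6.03% and 23.8%. Of the 8 genes, 4 were positive and 4 negative. Mrpl45 was at 35.6, 41.1, 40.3, 43.8 and 36.6 CPM over the CTRL libraries and at 34.9, 32.5 and 32.4 CPM in OPA1 LKO. The groups were apart by less than the spread within CTRL, and the log2 fold change was −0.25 ± 0.12 (SE; edgeR adjusted p = 0.235). Mrpl39, whose promoter is printed above, was at 34.3 ± 3.45 CPM in CTRL (SD, n = 5) and 27.7 ± 1.96 in OPA1 LKO (SD, n = 3), with a log2 fold change of −0.31 ± 0.13 (SE; edgeR adjusted p = 0.175). Mrpl23, with a bacterial counterpart that lines the tunnel exit, had a log2 fold change of 0.35, with 50.1 ± 8.16 and 63.8 ± 12.5 CPM. It did not pass.

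In the central protuberance of the large subunit, 0 of 7 genes were called or had an unadjusted p under 0.05 in edgeR. The shares of all tested genes were 6.03% and 23.8%. The 95% intervals of all 7 lay within 1.5-fold, against 27.9% of all tested genes. The smallest p there belonged to Mrpl38, with a log2 fold change of 0.17 ± 0.13 (SE; edgeR adjusted p = 0.467). Of the 30 remaining large-subunit genes, Mrpl41 (log2 fold change −0.37), Mrpl43 (−0.35), Mrpl54 (0.35) and Mrpl52 (0.018) did not pass, and Mrpl49 was the 1 that did.

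Of 26 small-subunit genes 0 were called and 1 had an unadjusted p under 0.05, against 6.03% and 23.8% of all tested genes. Their median log2 fold change was −0.065. Mrps18a and Mrps30 bear the letter of the small subunit but are built into the large one and were counted there. All 8 genes of the head, the upper part of the small subunit, had negative values with TMM factors and intervals within 2-fold; with upper-quartile factors 4 of the 8 were positive and on the log2(TPM + 1) scale 6 were. Mrps24, the head gene with the smallest p, was at 53.6 ± 9.20 CPM in CTRL (SD, n = 5) and 43.1 ± 4.83 in OPA1 LKO (SD, n = 3), and its log2 fold change was −0.31 ± 0.16 (SE; edgeR adjusted p = 0.272).

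In the body of the small subunit, Mrps25 was at 26.8, 30.3, 29.1, 31.6 and 32.3 CPM among controls, and at 25.8, 24.2 and 25.6 CPM in OPA1 LKO. The groups were apart by 1 CPM at their nearest libraries. Its log2 fold change was −0.25 ± 0.11 (SE; edgeR adjusted p = 0.207). Mrps28 (0.29), Mrps21 (−0.11) and Mrps27 (−0.0046) did not pass, and the signs of Mrps21 and Mrps27 turned positive on the TPM scale.

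Mrps12 encodes the counterpart of bacterial S12, which sits at the decoding site. It was at 13.5, 25.6, 11.9, 23.4 and 31.2 CPM in CTRL, compared with 14.5, 20.5 and 10.2 CPM in OPA1 LKO. CTRL replicates 1 and 3 and OPA1 LKO replicates 1 and 3 were the 4 lowest, so the low values crossed the genotypes. Its log2 fold change of −0.48 had a 95% interval of −1.23 to 0.26. Mrpl3, whose product lies near the site of peptide bond formation, showed the same split, at 6.16, 13.2, 5.98, 13.7 and 10.9 CPM in CTRL and 6.70, 10.8 and 5.80 CPM in OPA1 LKO. Its interval was −1.09 to 0.38.

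Mrps36, long listed with the small subunit and now regarded as a component of the 2-oxoglutarate dehydrogenase complex, matched the name rule and was kept apart in the counts by subunit. It was at 20.9, 18.9, 28.0, 19.1 and 14.6 CPM over the CTRL libraries and at 13.3, 16.2 and 15.2 CPM in OPA1 LKO. CTRL replicate 5 lay among the OPA1 LKO values, and the log2 fold change was −0.45 ± 0.20 (SE; edgeR adjusted p = 0.199).

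The libraries did not rank alike over the 77 genes. CTRL replicate 4 was the highest of the 8 libraries for 29 genes, and OPA1 LKO replicate 2 for 0. CTRL replicate 1 was the lowest for 20 genes, OPA1 LKO replicate 3 for 19 and CTRL replicate 5 for 18, while CTRL replicate 2 was the lowest for 0. Low and high libraries therefore occurred in both genotypes, but not equally for the highest rank in CPM. On average a CTRL library was the highest for 12.2 genes and an OPA1 LKO library for 5.33. The averages for the lowest rank were 9.4 and 10 genes.

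With CTRL replicates 1 and 3 both left out, a fit chosen after seeing the data, 8 of the 77 genes were called, 2 higher and 6 lower. Mrpl23 (edgeR log2 fold change 0.53) and Mrpl54 (0.58) were the higher ones. Mrps12 (−0.82), Mrpl44 (−0.64), Mrpl34 (−0.59), Mrpl49 (−0.56), Mrpl12 (−0.52) and Mrpl43 (−0.52) were the lower ones. In that fit 2919 genes in all were called, against 846 with all libraries, so calls rose over all genes and not only among the 77. It dropped the CTRL libraries that were lowest for Mrps12 and Mrpl3 and kept OPA1 LKO replicates 1 and 3, which were also low. For genes with that split the gain in calls was built into the choice of libraries, and no conclusion about genotype is drawn from it.

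The deposited transcript table held 171 transcripts of the 77 genes, of which 39 genes had 1 transcript and 38 had more. In 21 genes a second transcript took over 10% of the gene's TPM on average. The share of the leading transcript separated the genotypes in 0 genes, and in 7 genes it ranged over more than 40 percentage points across the libraries. These shares are estimates, since reads common to several transcripts are divided between them by a model.

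Mrps35 had the widest range of those shown. Its transcript XM_006507035.3 took 65.1, 0, 60.5, 12.8 and 0% in CTRL and 57.8, 7.90 and 71.0% in OPA1 LKO. CTRL replicates 1 and 3 and OPA1 LKO replicates 1 and 3 were high, and the other 4 libraries low. Transcript NM_026065.3 of Mrpl42 took 9.97, 0, 38.9, 0.126 and 10.9% in CTRL and 36.7, 9.86 and 55.1% in OPA1 LKO, with CTRL replicate 3 and OPA1 LKO replicates 1 and 3 the highest.

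Transcript XM_017315496.1 of Mrps27 took 70.5, 23.3, 81.8, 34.4 and 55.8% in CTRL and 62.5, 52.4 and 65.2% in OPA1 LKO. CTRL replicates 2 and 4 were low and the OPA1 LKO libraries lay inside the CTRL range. Transcript XM_006496256.3 of Mrps9 took 64.6, 39.2, 72.4, 33.5 and 59.6% in CTRL and 46.4, 32.9 and 77.2% in OPA1 LKO, so both genotypes again held high and low libraries. The cause of these splits was not tested.

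**Figure D4:**
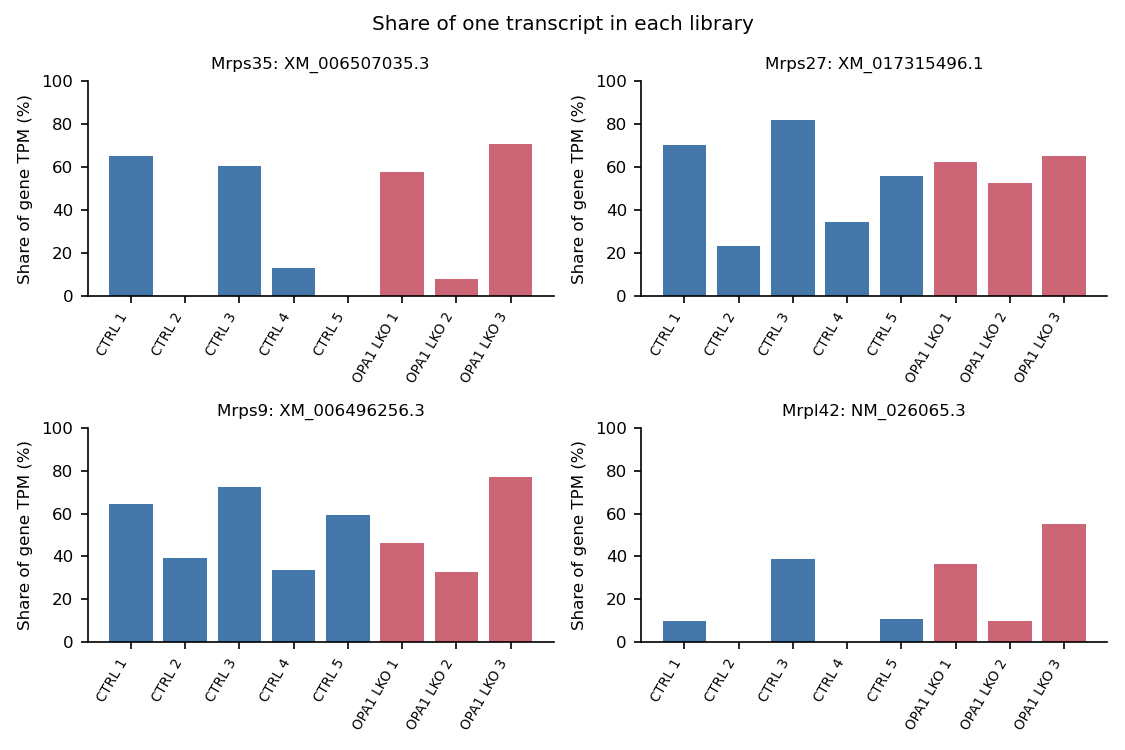
Share of 1 transcript in the summed TPM of its gene, in percent, for Mrps35, Mrps27, Mrps9 and Mrpl42 in each of the 8 libraries (bars from 0, coloured by genotype). Shares as far apart as 0% and 65.1% for Mrps35 occurred within CTRL.

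The other genes of mitochondrial translation were listed by function. Over all tested genes, edgeR called 6.03% and 23.8% had an unadjusted p under 0.05, the shares to set beside the counts below. Of 6 ribosomal proteins with other names, 0 were called by edgeR, DESeq2 or limma-voom and 0 had an unadjusted p under 0.05. The smallest p values belonged to Chchd1 (log2 fold change −0.28), Mrpl58, listed in the files as Ict1 (0.085), and Dap3 (−0.074), which binds GTP in the small subunit. Of 28 genes for ribosome assembly and RNA modification 0 were called by edgeR or limma-voom, 1 by DESeq2, and 4 had an unadjusted p under 0.05 in edgeR. Nsun4, a methyltransferase of the small-subunit RNA that also takes part in joining the subunits, was at 11.7, 15.4, 13.4, 14.3 and 13.4 CPM among controls, and at 9.42, 10.3 and 10.4 CPM in OPA1 LKO. The groups did not overlap in CPM but did in TPM, and the log2 fold change was −0.45 ± 0.14 (SE; edgeR adjusted p = 0.0826). With DESeq2 the adjusted p was 0.0446. With 1 library left out the edgeR adjusted p ran from 0.0422 to 0.28, and only the fit without CTRL replicate 1 passed. Mrm3, listed as Rnmtl1 (0.46), and Rpusd3 (−0.45), both RNA modification genes, did not pass.

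Of 17 tested translation factors and activators 0 were called by any of the 3 tools, against 6.03% of all tested genes in edgeR. An unadjusted p under 0.05 in edgeR was found for 2, against 23.8% of all tested genes. Pdf, which removes the formyl group from new chains, was at 38.0 ± 5.03 CPM in CTRL (SD, n = 5) and 28.9 ± 1.58 in OPA1 LKO (SD, n = 3), with every OPA1 LKO library lower in CPM (log2 fold change −0.39 ± 0.13 SE; edgeR adjusted p = 0.116). Tsfm, an elongation factor, also had groups that did not overlap in CPM, at 13.1 ± 0.615 and 10.5 ± 1.28 CPM, with a log2 fold change of −0.32 ± 0.13 (SE; edgeR adjusted p = 0.179). In TPM the groups overlapped for both Pdf and Tsfm. Gfm1, the elongation factor that moves the ribosome along, had a log2 fold change of −0.41 and overlapping groups.

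Of 10 transcription regulators of mitochondrial biogenesis 0 were called by edgeR, 1 by DESeq2 and 1 by limma-voom (Myc in both). An unadjusted p under 0.05 in edgeR was found for 3, against 23.8% of all tested genes. Myc was at 12.9, 2.30, 3.24, 5.83 and 3.32 CPM in CTRL, compared with 24.6, 10.7 and 20.7 CPM in OPA1 LKO. CTRL replicate 1 exceeded OPA1 LKO replicate 2, and the log2 fold change of 1.75 ± 0.50 (SE) had an edgeR adjusted p of 0.0688. With 1 library left out it ran from 0.00322 to 0.255, and only the fit without CTRL replicate 1 passed. Pprc1, a coactivator of NRF1 (0.60), and Tfam, the mitochondrial DNA packaging and transcription factor (−0.35), did not pass.

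Of 10 mitochondrial protease and chaperone genes 1 was called by edgeR, against 6.03% of all tested genes. Lonp1, the matrix protease that degrades unassembled proteins, was at 94.1 to 111 CPM in the 5 CTRL libraries and at 297, 165 and 195 CPM in OPA1 LKO. All OPA1 LKO libraries were above CTRL, and it rose by a log2 fold change of 1.11 ± 0.18 (SE; edgeR adjusted p = 0.00946). It passed in each of the 8 fits that left out 1 library. The chaperone Hspa9 (0.60) and the protease subunit Clpp (0.28) did not pass.

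Cytosolic ribosomal proteins, the counterparts in the ribosome that makes the mitochondrial ribosomal proteins themselves, differed in how many were called. Of 80 such genes 17 rose and 0 fell, against 3.34% and 2.69% of all tested genes. Their median log2 fold change was 0.49 with TMM factors and 0.66 on the log2(TPM + 1) scale. In 53 every OPA1 LKO library was above every CTRL library in CPM, against 8.0% of all tested genes. Their summed level in TPM was 43797 to 68941 in CTRL and 73659 to 90241 in OPA1 LKO, a ratio of means of 1.58. Within CTRL, replicate 1 held the highest sum and replicate 2 the next, at 49507. Leaving out any 1 library moved the count of called genes by over 1.5 times, from 0 without OPA1 LKO replicate 1 to 31 without CTRL replicate 1. Of 80 tested nuclear genes of the respiratory chain and ATP synthase, 1 rose and 0 fell (3 called without CTRL replicate 1), and the median was −0.12 with TMM factors and 0.051 on the log2(TPM + 1) scale. The 77 mitochondrial ribosomal protein genes had 1 call in the same fit, and the difference between these groups of genes was not tested.

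**Figure D5:**
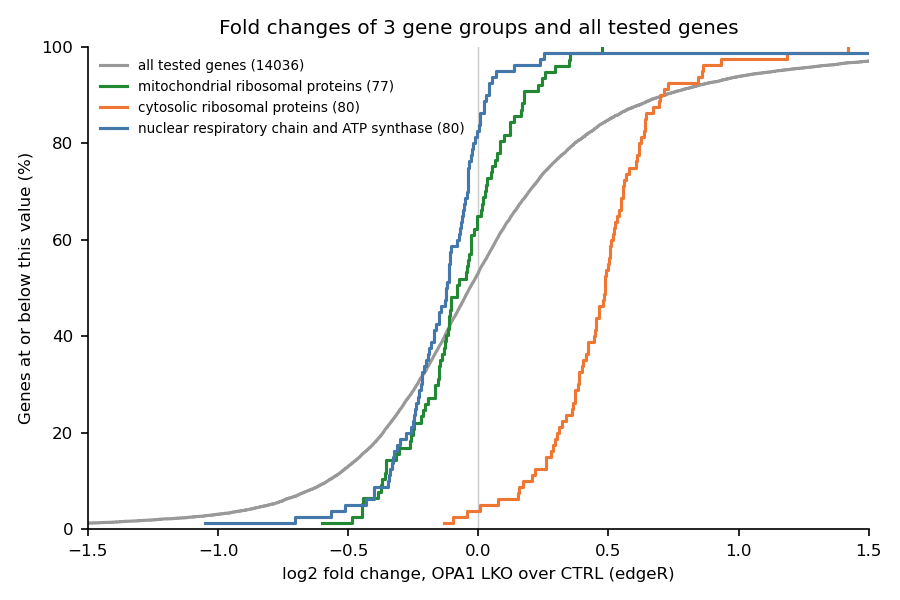
Cumulative share of genes (percent) at or below each log2 fold change of OPA1 LKO over CTRL, for mitochondrial ribosomal proteins, cytosolic ribosomal proteins, nuclear respiratory chain and ATP synthase genes and all tested genes. The median is −0.081 for mitochondrial and 0.49 for cytosolic ribosomal proteins, −0.12 for the respiratory chain and −0.033 for all genes.

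Some counts carry an annotation limit. In GENCODE M21, 26 of the 77 genes overlap another protein-coding gene, 4 of them on the same strand (Mrpl53, Mrps24, Mrps34 and Mrps6). Mrpl49, the 1 gene called, overlaps Syvn1 by 91 bases on the opposite strand, and Mrpl19 and Mrps25 also overlap genes on the opposite strand. The library kit keeps strand, but whether the counting used it is unknown here, so the values of all 26 genes are uncertain.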

How the data were processed

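Per the submitters' processing notes, the authors used STAR, RSEM, StringTie and MultiQC with mm10; their versions and the annotation release are not stated. The deposited tables hold RSEM expected counts and TPM per gene and per transcript for 8 libraries. Every row named a gene. After rounding, expected counts were tested in R 4.3.3 with edgeR 4.0.16 (quasi-likelihood test, TMM factors, filterByExpr with minimums of 10 and 15 counts, Benjamini-Hochberg adjustment over all 14036 tested genes, threshold 0.05). CPM were computed with TMM factors. For edgeR, the SE is the absolute log2 fold change divided by the square root of the F statistic of the test. The 95% intervals use this SE and are approximate. Alternatives used limma 3.58.1 (voom, and log2 of TPM plus 1 or 0.1), DESeq2 1.42.0, other size factors, no filter, a replicate block, no mitochondrially encoded genes, and each library left out. The scripts were tested on simulated counts with 200 changed genes. No 2 libraries were identical. The depth of 16076404 to 20471271 counts per library limits precision at low levels.

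Members, lists and roles were chosen with earlier results of these data known. Genes named are every member called, those with the smallest p overall (12) and in each structural region, the largest changes each way (4), the 5 highest and 5 lowest TPM, and from other lists the called genes and the 3 smallest p. Of 72 listed pathway genes 71 were in the table, 4 under another symbol. Promoters are from RefSeq GRCm38.p6, and 9 members had none in the table used. Each of the 2 groups carries replicate numbers, but no source says that they pair animals or batches.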

Additional observations from a re-analysis of the deposited data

How the results depend on the processing

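The count of called genes depended on the fit more than on any one member. Over all genes 846 were called (469 higher, 377 lower), against 1596 with DESeq2 (786 and 810), 333 on log2(TPM + 1) (259 and 74), 318 on log2(TPM + 0.1) (240 and 78), 623 with no low-count filter (238 lower) and 198 to 1701 with 1 library left out (144 to 924 higher, 54 to 777 lower). Without CTRL replicates 1 and 3 together, chosen after seeing the data, 2919 were called (1491 and 1428). Of the 77 members 1 was called, lower; on both TPM scales and with no filter 0 were, without those 2 libraries 8 were (2 higher, 6 lower), and with 1 library left out 0 to 2 (0 to 1 higher, 0 to 1 lower). The translation factor and assembly lists went from 0 to 1 with DESeq2, to 7 without those 2 libraries and to 0 to 1 with 1 library left out. Cytosolic ribosomal proteins went from 17 to 50 with DESeq2, 7 on each TPM scale, 9 with no filter, 45 without those 2 libraries and 0 to 31 with 1 left out. Respiratory chain and ATP synthase genes went from 1 to 4 with DESeq2, 7 without those 2 libraries and 1 to 3 with 1 left out. The median log2 fold change on log2(TPM + 1) and log2(TPM + 0.1) was 0.11 and 0.12 for the members and 0.089 and 0.11 for all genes tested on that scale.

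With the replicate block, 367 genes were called (193 higher, 174 lower), 0 members (0 lower) and 7 cytosolic ribosomal proteins; Mrpl52 turned to −0.073 and Mrps27 to 0.017. The numbers were not shown to pair libraries: deviations of same-numbered libraries correlated at 0.14, 0.093 and 0.25, and OPA1 LKO replicates 1 and 3 were closest to the CTRL libraries of their own number and replicate 2 to CTRL replicate 5.

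Of the 24 members named by rule, 19 kept their sign in every alternative. Mrps27, at −0.0046, turned to 0.0039 with relative log expression factors, 0.082 with upper-quartile factors, 0.16 and 0.17 on the TPM scales, 0.0079 with no filter, 0.014 without mitochondrially encoded genes, and to 0.027, 0.05 and 0.085 without CTRL replicate 2, CTRL replicate 4 and OPA1 LKO replicate 3. On log2(TPM + 1) and log2(TPM + 0.1), Mrpl33 turned to 0.06 in both, Mrps21 to 0.12 in both and Mrpl35 to 0.058 and 0.066. With 1 library left out, Mrps27 ran from −0.067 to 0.085 and Mrps21 from −0.19 to 0.025, the latter without CTRL replicate 3. Mrpl52 turned to −0.0069, −0.0076 and −0.079 without CTRL replicate 4, CTRL replicate 5 and OPA1 LKO replicate 1. The cause was not tested. Requiring at least 5 TPM, or no TPM minimum, left 1 member called. Neither choice could change this, since all 77 genes passed 1 TPM and Mrpl49 had a mean of 25.6 TPM, so neither tests the call.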
